A study of Homo sapiens with 24 samples.

Results

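AKR1C1 and 9 genes related to it by family or by a shared regulator were followed through 24 mRNA libraries of IMR90 cells, a human lung fibroblast line. The 10 genes were taken by symbol from the count files, which hold 25702 gene identifiers. They are the aldo-keto reductases AKR1C1, AKR1C2, AKR1C3 and AKR1B1, the transcription factor gene NFE2L2, and the NRF2 target genes NQO1, HMOX1, GCLM, TXNRD1 and SRXN1. AKR1C1 was chosen by its higher level in these libraries with the HMGA1 hairpin, so its values in the hairpin comparisons are given as a description with no test. The question asked of the other genes was whether they followed it.

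The study used these libraries to see how HMGA1, an architectural chromatin protein, bears on RAS-induced senescence (RIS). All 24 cultures, at passage 23 to 28, carried ER:HRAS(G12V), an oncogenic HRAS fused to the oestrogen receptor that 4-hydroxytamoxifen (4OHT) switches on, so the control cells carried it too. The growing group had the empty MSCV vector and no 4OHT, and the shHMGA1 group had the MSCV miR30 hairpin against HMGA1 and no 4OHT. The RIS group had the vector and 6 days of 4OHT, and the RIS+shHMGA1 group had the hairpin and 6 days of 4OHT. Each group had 6 libraries, labelled as biological replicates. The RIS and RIS+shHMGA1 comparisons with their untreated controls include any effect of 4OHT itself, and a single hairpin construct stands for HMGA1 loss.

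NRF2, the protein made from NFE2L2, is kept low by KEAP1, which hands it to a ubiquitin ligase. Oxidants and electrophiles that modify KEAP1 let NRF2 build up and bind antioxidant response elements with small MAF proteins, and BACH1 occupies many of the same elements as a repressor. Its targets make and recycle glutathione and thioredoxin, supply NADPH, break down haem and reduce quinones and carbonyls, and the AKR1C enzymes, which reduce steroid and prostaglandin ketones, are among the targets best known in human cells. Because NRF2 is controlled mainly at the protein level, NFE2L2 mRNA does not measure its activity.

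AKR1C1, AKR1C2 and AKR1C3 lie side by side on chromosome 10 and came from gene duplication. In GRCh37, the build of the deposited counts, with GENCODE gene models, AKR1C1 spans 5005445 to 5025475 on the plus strand, AKR1C2 5029967 to 5060223 on the minus strand and AKR1C3 5077546 to 5149878 on the plus strand. The 150 bases before each start, from the RefSeq promoter table on GRCh38.p14, are shown because AKR1C2 was, of the 8 other genes that passed the filter on low counts, the one whose levels stayed closest to AKR1C1 over the libraries. They lie at chr10:4963265-4963414 on the plus strand, chr10:5003858-5004007 on the minus strand and chr10:5048631-5048780 on the plus strand, and capitals mark bases that differ from AKR1C1 or have no partner in it.
AKR1C1: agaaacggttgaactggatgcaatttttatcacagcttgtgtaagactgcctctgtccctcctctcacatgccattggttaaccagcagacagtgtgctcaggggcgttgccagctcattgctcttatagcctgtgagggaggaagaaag
AKR1C2: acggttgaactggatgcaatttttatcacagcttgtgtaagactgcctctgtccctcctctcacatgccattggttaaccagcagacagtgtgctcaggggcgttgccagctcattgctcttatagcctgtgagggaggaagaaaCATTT
AKR1C3: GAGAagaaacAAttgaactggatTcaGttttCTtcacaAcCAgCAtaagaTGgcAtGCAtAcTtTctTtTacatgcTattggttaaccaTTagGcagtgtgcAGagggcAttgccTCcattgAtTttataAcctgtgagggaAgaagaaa
AKR1C2 was identical to AKR1C1 at 145 of 146 aligned bases, and AKR1C3 at 111 of 146, or 76.0%. AKR1C3 has 2 promoter windows, and the one with more bases identical to AKR1C1 was taken, so its value was selected for likeness. The transcripts are alike too: of the 50-base windows of the AKR1C2 transcript, 45.7% also occur in AKR1C1, and 22.3% of the AKR1C1 windows occur in AKR1C2. Of the windows of the AKR1C3 transcript, 11.9% occur in AKR1C1 and 14.9% in AKR1C2. Reads from such windows cannot be told apart, and reads of low mapping quality were removed by the authors before counting, so the counts of these genes rest on the parts that differ and each may hold some reads of the others.

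The core of the antioxidant response element, searched as TGACNNNGC on both strands, occurs in 13.3% of the 35116 RefSeq promoter windows, which run from 250 bases before to 50 after a start. Of the 10 genes, 9 have 13 such windows between them, and 3 windows held it, 1 of GCLM with 1 match and 2 of TXNRD1 with 3 matches. The GCLM match and the first match of each TXNRD1 window are shown in capitals with 20 bases on each side, read along the gene's strand. They lie at chr1:93909436-93909484 on the minus strand for GCLM, and at chr12:104215660-104215708 and chr12:104286910-104286958 on the plus strand for TXNRD1, on GRCh38.p14. The remaining TXNRD1 match, at chr12:104215751-104215799, is not shown because its bases run past the start.
GCLM: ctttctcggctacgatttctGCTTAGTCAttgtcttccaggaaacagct
TXNRD1, first window: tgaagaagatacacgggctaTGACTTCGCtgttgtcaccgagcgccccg
TXNRD1, second window: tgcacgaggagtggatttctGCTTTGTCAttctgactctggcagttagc
The GCLM match and the TXNRD1 match of the second window are on the strand opposite to the gene. The related AP-1 sequence TGANTCA occurs in 7.71% of the windows and in those of none of the 9 genes. The matches are letters in a window and no measure of binding. Sequence outside the windows was not searched, so a gene without a match here is not shown to lack an element.

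Total counts ran from 8698070 to 23103424 per library. HMGA1 was at 639 to 861 CPM (CPM are counts scaled to a common TMM-normalised library size) in the growing group and at 54.4 to 143 in the shHMGA1 group, and at 641 to 786 in the RIS group and 60.0 to 262 in the RIS+shHMGA1 group, so every hairpin library was below every vector library. The 8 fibroblast markers were at or above 1 CPM in all libraries, and 4 of 5 epithelial markers were below 1 CPM in all. Of 4 leukocyte markers, 3 were below 1 CPM in all libraries and the fourth, CD68, was at 40.2 to 105 CPM, while 3 endothelial markers summed to 0.305 to 2.01 CPM. The summed fibroblast markers moved with 4OHT and, in untreated cells, with the hairpin. They were at 22652 to 40175 CPM in 5 growing libraries and 5606 to 9039 in 5 RIS libraries. The sums were 14062 to 20037 in shHMGA1 and 4435 to 5815 in RIS+shHMGA1. Of these markers, LUM and DCN went the other way with the hairpin. LUM was at 178 to 351 CPM in shHMGA1 against 77.6 to 158 in the same 5 growing libraries, and DCN at 295 to 386 against 113 to 286. The part of the fibroblast markers in the results was not tested. In whole cultures, fewer cells that express a gene and less RNA per cell cannot be told apart.

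A pair of libraries stood apart and went against their labels. The library labelled growing replicate 4 had 3.73 CPM of MKI67, a marker of cycling cells, and 542 CPM of IL1A, a secreted cytokine of senescent cells, against 87.6 to 152 and 18.3 to 39.9 in the other 5. The library labelled RIS replicate 2 had 141 CPM of MKI67 and 24.9 of IL1A, against 3.16 to 6.85 and 407 to 553 in the other 5. Both were kept in their labelled groups, and each result is given with all 24 libraries and with the 22 without them. A gene was called when edgeR's quasi-likelihood test gave it a Benjamini-Hochberg adjusted p under 0.01 and its log2 fold change was over 0.58 in size. Fold changes are log2 values ± SE, where the SE is the size of the fold change over the square root of edgeR's F statistic. It therefore restates the test, and AKR1C1 is given without it in the hairpin comparisons and the interaction. Where groups are said not to overlap, the share of all genes that separate in the same way was not counted.

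**Figure D1:**
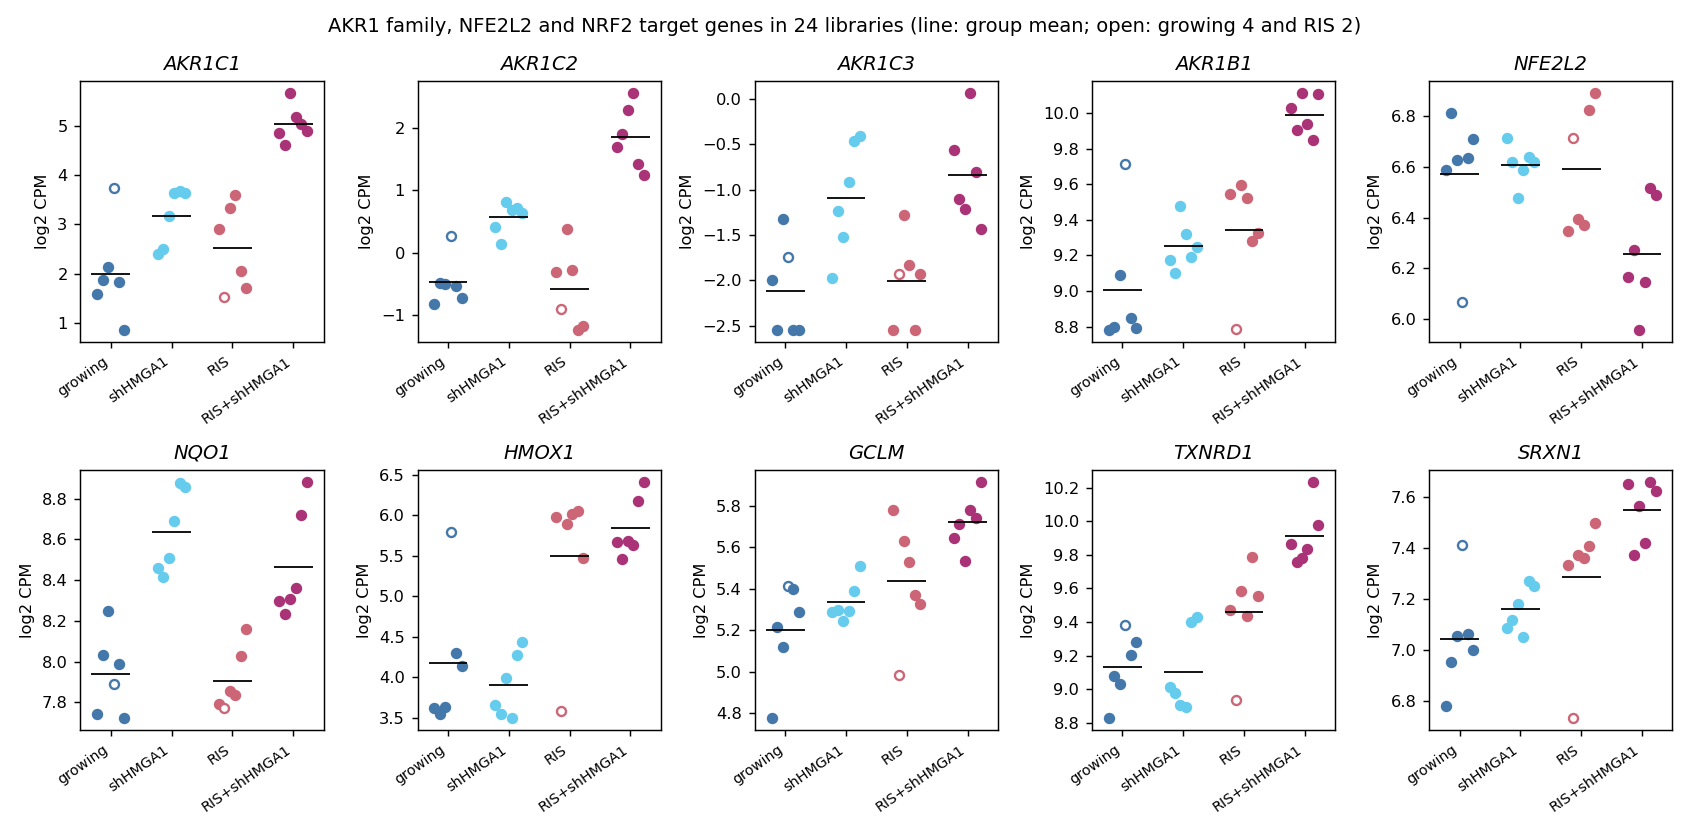
Log2 CPM of each of the 10 genes in 24 libraries, 6 in each of the groups growing, shHMGA1, RIS and RIS+shHMGA1. Each point is a library, the line is the group mean, and open points are the libraries labelled growing replicate 4 and RIS replicate 2. All 6 RIS+shHMGA1 libraries lay above all others for AKR1C1, AKR1C2 and AKR1B1, and at each 4OHT state all hairpin libraries lay above all vector libraries for NQO1. AKR1C1 was chosen by its level in hairpin libraries, and the share of all genes that separate in these ways was not counted.

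AKR1C1 was at 1.65 CPM in the lowest, 3.44 in the median and 13.1 in the highest growing library, the last of these being replicate 4. These values were 5.15, 10.5 and 12.6 with the hairpin alone, 2.72, 5.63 and 11.9 in RIS cells, and 24.4, 31.2 and 50.6 in RIS+shHMGA1 cells. The 6 RIS+shHMGA1 libraries were above the other 18, and growing replicate 4 was the only growing library that reached into the shHMGA1 range. As a description, AKR1C1 was higher by 1.03 in shHMGA1 than in growing cells and by 2.38 in RIS+shHMGA1 than in RIS, and without the 2 libraries by 1.60 and 2.23. Its comparisons with and without 4OHT are not those it was chosen by, but they share libraries with them. With the hairpin, AKR1C1 rose by 1.84 ± 0.40 after 4OHT (edgeR adjusted p = 0.000859). With the vector it differed by 0.48 ± 0.42 (adjusted p = 0.426), and without the 2 libraries by 1.20 ± 0.34 (adjusted p = 0.00368), which is a call.

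AKR1C2 was at a lower level than AKR1C1 in every library and, like it, was highest in RIS+shHMGA1. For the lowest, median and highest library, it was at 0.397, 0.528 and 1.03 CPM in growing and 0.926, 1.41 and 1.58 in shHMGA1, while RIS had 0.254, 0.498 and 1.12 and RIS+shHMGA1 2.18, 3.29 and 5.70. The lowest RIS+shHMGA1 library was above the highest library of every other group, and growing replicate 4 was again the only growing library to reach the shHMGA1 range. AKR1C2 rose by 2.68 ± 0.31 in RIS+shHMGA1 against RIS (adjusted p = 5.4e-05) and by 1.43 ± 0.28 in RIS+shHMGA1 against shHMGA1 (adjusted p = 0.000414). In shHMGA1 against growing it was higher by 1.26 ± 0.32 without passing the threshold (adjusted p = 0.0672), and passed it without the 2 libraries at 1.46 ± 0.33 (adjusted p = 0.00643). RIS was 0.01 ± 0.34 above growing (adjusted p = 0.979), or 0.31 ± 0.39 without the 2 libraries (adjusted p = 0.513). The counts behind these values ran from 3 to 54 per library, and stretches shared with AKR1C1 keep them from being fully separate measurements.

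AKR1C3 was near the limit of detection and was not tested. Its count was 0 in 3 growing and 2 RIS libraries and between 1 and 9 in all 12 hairpin libraries. Summed over 6 libraries, it had 6 counts in growing and 6 in RIS, against 27 in shHMGA1 and 22 in RIS+shHMGA1. The hairpin groups thus held more counts of AKR1C3, which shares stretches with AKR1C1 and AKR1C2, at up to 582 and 54 counts in a library, and the part of their reads in it was not tested.

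AKR1B1, the aldose reductase gene, lies on another chromosome (7, 134127108 to 134144036, minus strand) and is expressed at a far higher level. Per kilobase of exon in the GENCODE models, which may differ from those used for counting, its mean level was 145 CPM in growing and 279 in RIS+shHMGA1 cells, against 0.546 and 3.85 for AKR1C1. In CPM it was at 440, 453 and 838 in growing and 549, 596 and 712 in shHMGA1, while RIS had 442, 689 and 772 and RIS+shHMGA1 923, 1013 and 1108. The highest growing library was replicate 4 and the lowest RIS library replicate 2. AKR1B1 rose after 4OHT in hairpin cells by 0.74 ± 0.15 (adjusted p = 0.000641). The hairpin difference in RIS was 0.63 ± 0.15 with no overlap of the groups, just outside the threshold (adjusted p = 0.0112), and without the 2 libraries the p passed but the difference, 0.54 ± 0.10, was under the fold threshold (adjusted p = 0.000981). Between RIS and growing it differed by 0.32 ± 0.15 (adjusted p = 0.149), and was called without the 2 libraries at 0.59 ± 0.10 (adjusted p = 2.7e-05). In shHMGA1 against growing it was higher by 0.21 ± 0.15 (adjusted p = 0.600), and without the 2 libraries by 0.39 ± 0.10 (adjusted p = 0.0130).

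NFE2L2 (chromosome 2, 178083395 to 178257484, minus strand) was not called in any comparison. The growing libraries had 66.9, 98.9 and 112 CPM as lowest, median and highest, shHMGA1 89.0, 98.0 and 105, RIS 81.3, 94.4 and 118, and RIS+shHMGA1 62.0, 74.4 and 91.5. Its ranges overlapped between all groups, with RIS+shHMGA1 reaching the lowest median. The differences were -0.34 ± 0.13 in RIS+shHMGA1 against shHMGA1 (adjusted p = 0.0228) and -0.34 ± 0.13 in RIS+shHMGA1 against RIS (adjusted p = 0.0415). Without the 2 libraries these were -0.34 ± 0.11 (adjusted p = 0.00741) and -0.32 ± 0.11 (adjusted p = 0.0298), under the fold threshold. Its difference was 0.02 ± 0.13 in both RIS and shHMGA1 against growing, and -0.09 ± 0.12 and -0.07 ± 0.11 without the 2 libraries. Exons of NFE2L2 models overlap those of HNRNPA3 and AGPS on the opposite strand, and whether counting used the strand is not given in the sources used here.

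NQO1 (chromosome 16, 69740899 to 69760571, minus strand), which reduces quinones and is a standard readout of NRF2, was higher with the hairpin, and its differences after 4OHT were not called. It was at 211, 245 and 304 CPM in growing and 218, 230 and 285 in RIS, against 341, 388 and 469 in shHMGA1 and 301, 322 and 472 in RIS+shHMGA1. At each 4OHT state, every hairpin library was above every vector library. NQO1 rose by 0.70 ± 0.13 in shHMGA1 against growing (adjusted p = 0.00817), and by 0.69 ± 0.13 without the 2 libraries (adjusted p = 0.00243). That call was lost when any single replicate number was left out, with adjusted p from 0.0157 to 0.0520 and differences from 0.61 to 0.79. Within 4OHT cells the hairpin difference was 0.57 ± 0.13 with an adjusted p of 0.00882, just under the fold threshold, and 0.55 ± 0.13 without the 2 libraries (adjusted p = 0.00398). After 4OHT it differed by -0.04 ± 0.13 in vector cells (adjusted p = 0.862) and by -0.16 ± 0.13 in hairpin cells (adjusted p = 0.285), and without the 2 libraries by -0.02 ± 0.14 and -0.16 ± 0.13.

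HMOX1 (chromosome 22, 35776354 to 35790207, plus strand), the haem oxygenase that NRF2 induces and BACH1 represses, was higher after 4OHT, and its differences with the hairpin were not called. It was at 11.5, 14.9 and 55.3 CPM in growing and 11.1, 14.1 and 21.4 in shHMGA1, against 11.8, 60.9 and 66.3 in RIS and 43.8, 50.9 and 85.1 in RIS+shHMGA1. The value of 55.3 belonged to growing replicate 4 and that of 11.8 to RIS replicate 2, and outside that pair no untreated library reached a 4OHT library. HMOX1 rose by 1.94 ± 0.38 in RIS+shHMGA1 against shHMGA1 (adjusted p = 0.000413). In RIS against growing it was higher by 1.28 ± 0.37 (adjusted p = 0.0293), and rose by 2.03 ± 0.21 without the 2 libraries (adjusted p = 1e-08), the largest RAS difference among the 9 tested genes there. With the hairpin it differed by -0.47 ± 0.37 in untreated cells (adjusted p = 0.635) and 0.19 ± 0.36 in 4OHT cells (adjusted p = 0.688), and without the 2 libraries by 0.08 ± 0.20 and -0.02 ± 0.19, so that the direction turned in both.

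**Figure D2:**
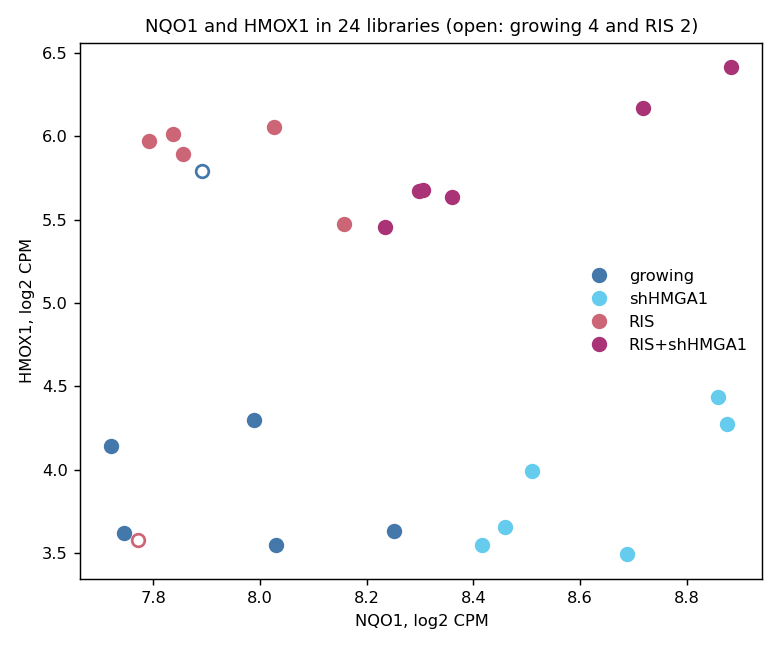
NQO1 against HMOX1, both as log2 CPM, with a point for each of the 24 libraries coloured by group and open points for growing replicate 4 and RIS replicate 2. Vector libraries lie at 211 to 304 CPM of NQO1 and hairpin libraries at 301 to 472, while apart from the open points the untreated libraries lie at 11.1 to 21.4 CPM of HMOX1 and the 4OHT libraries at 43.8 to 85.1.

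The remaining targets serve glutathione and thioredoxin: GCLM, the modifier subunit of the enzyme that starts glutathione synthesis, TXNRD1, thioredoxin reductase, and SRXN1, which restores oxidised peroxiredoxins. TXNRD1 was at 454, 565 and 667 CPM in growing and 476, 510 and 690 in shHMGA1, while RIS had 489, 730 and 882 and RIS+shHMGA1 866, 923 and 1205. It rose by 0.80 ± 0.14 in RIS+shHMGA1 against shHMGA1 without overlap (adjusted p = 0.000265). In RIS against growing it differed by 0.34 ± 0.14 (adjusted p = 0.0996), or 0.48 ± 0.13 without the 2 libraries (adjusted p = 0.00251), and in RIS+shHMGA1 against RIS by 0.44 ± 0.14 (adjusted p = 0.0259), or 0.35 ± 0.12 (adjusted p = 0.0294), none of them a call.

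GCLM ran from 27.2 to 42.4 CPM in growing and 37.7 to 45.4 in shHMGA1, against 31.5 to 54.7 in RIS and 46.2 to 60.2 in RIS+shHMGA1. SRXN1 ran from 110 to 170 in growing and 133 to 154 in shHMGA1, against 106 to 181 in RIS and 166 to 202 in RIS+shHMGA1. For both, no RIS+shHMGA1 library overlapped shHMGA1, for GCLM narrowly, at 46.2 against 45.4 CPM. The share of all genes that separate in this way was not counted. In edgeR's test 9004 of 13356 genes had an unadjusted p under 0.05 there. The lowest RIS library was replicate 2 for both genes. Each was 0.39 ± 0.12 higher in RIS+shHMGA1 against shHMGA1, with adjusted p of 0.00776 for GCLM and 0.00633 for SRXN1, below the fold threshold. Against growing, RIS was higher by 0.24 ± 0.12 in GCLM (adjusted p = 0.154) and 0.25 ± 0.12 in SRXN1 (adjusted p = 0.135), and by 0.37 ± 0.11 (adjusted p = 0.00621) and 0.43 ± 0.09 (adjusted p = 0.000171) without the 2 libraries. With the hairpin, GCLM, TXNRD1 and SRXN1 differed from growing by -0.02 to 0.12, with adjusted p-values of 0.698 to 0.966, and without the 2 libraries by 0.03 to 0.19, with adjusted p-values of 0.0914 to 0.886. In RIS+shHMGA1 against RIS, GCLM was 0.27 ± 0.12 higher (adjusted p = 0.0748) and SRXN1 0.25 ± 0.12 (adjusted p = 0.0892), and without the 2 libraries 0.19 ± 0.11 and 0.16 ± 0.08. On GRCh37, GCLM lies on chromosome 1 (94350755 to 94375012, minus strand), TXNRD1 on chromosome 12 (104609557 to 104744085, plus strand) and SRXN1 on chromosome 20 (627259 to 633844, minus strand), where its exons overlap an unnamed gene model on the same strand.

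**Figure D3:**
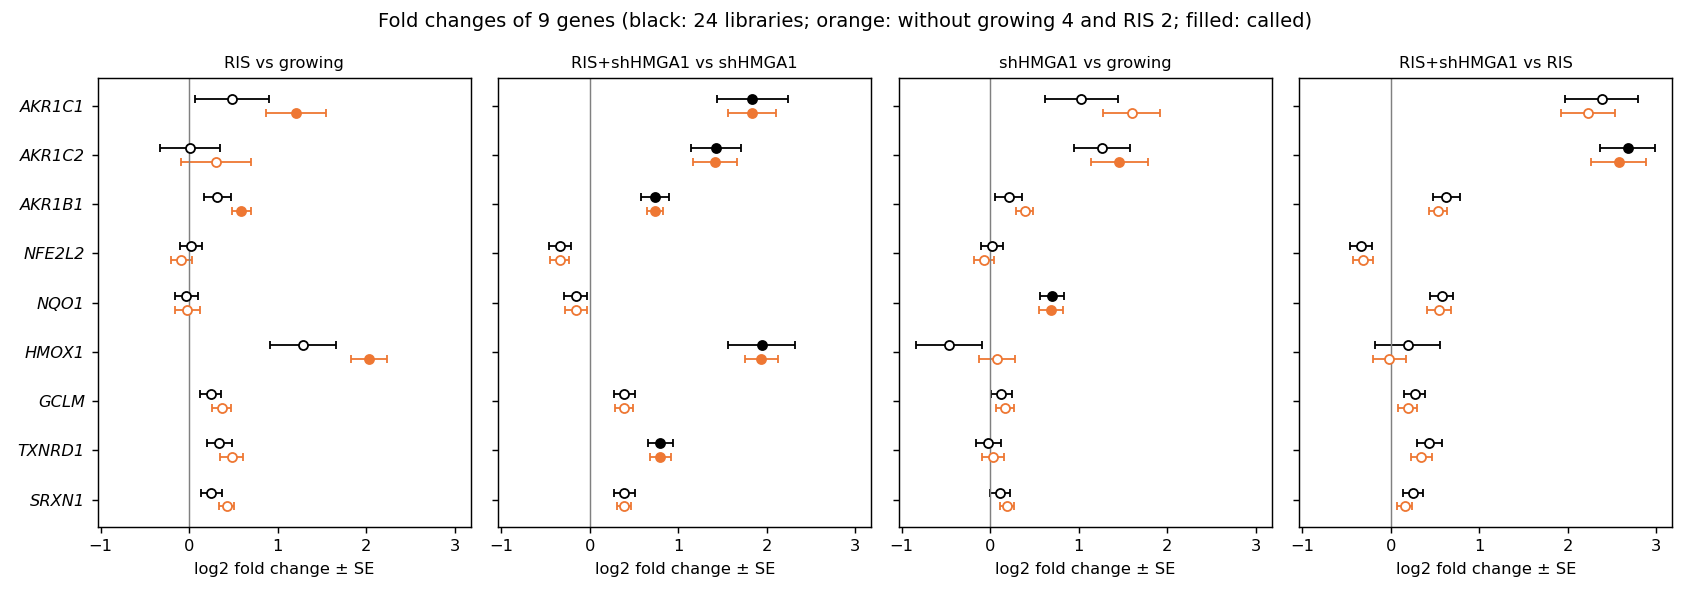
Log2 fold change ± SE of the 9 tested genes in 4 comparisons, with all 24 libraries in black and without growing replicate 4 and RIS replicate 2 in orange. Filled points were called. AKR1C1 has no test in the hairpin comparisons and is open there, and its bars there are not to be read as a test. AKR1C1, AKR1C2, AKR1B1, HMOX1 and TXNRD1 are filled in RIS+shHMGA1 against shHMGA1 in both fits, and AKR1C2 is filled in RIS+shHMGA1 against RIS in both.

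By comparison, of the 8 tested genes other than AKR1C1, 4 rose in RIS+shHMGA1 against shHMGA1 (AKR1C2, AKR1B1, HMOX1 and TXNRD1) and none fell. AKR1C1, chosen by its level in hairpin libraries, was called as well. Of all 13356 genes tested, 19.6% were called higher there and 19.5% lower. Neither of the 2 libraries belongs to these groups, and without them the same 4 were called, at 1.42, 0.74, 1.94 and 0.80, and AKR1C1 at 1.83, against 22.5% of 13416 genes higher and 21.9% lower. The median difference of the 8 genes was 0.56, or 0.74 with AKR1C1, against -0.02 over all genes.

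In RIS against growing, edgeR called none of the 9 genes and 0% of all genes in either direction, although 4407 genes had an unadjusted p under 0.05. DESeq2 called 829 genes there and limma's voom with sample weights 6317. Without the 2 libraries AKR1B1 and HMOX1, 2 of the 8, and AKR1C1 were called higher and none lower, against 19.2% of genes higher and 20.5% lower. The difference between the 24-library and the 22-library result rests on growing replicate 4 and RIS replicate 2.

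Of the 8 tested genes other than AKR1C1, only NQO1 rose in shHMGA1 against growing, where 0.135% of genes were called higher and 0.135% lower. Without the 2 libraries NQO1 and AKR1C2 did, against 1.21% higher and 1.39% lower. Only AKR1C2 rose in RIS+shHMGA1 against RIS, where 1.77% of genes were called higher and 0.786% lower, and without the 2 libraries again AKR1C2, against 10% higher and 2.5% lower. The median of the 8 was 0.12 in shHMGA1 against growing and 0.35 in RIS+shHMGA1 against RIS. Over all genes it was -0.03 and -0.06. Without the 2 libraries the medians of the 8 were 0.18 and 0.27, with -0.001 and -0.03 over all genes.

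Whether the hairpin changed the response to RAS was tested as an interaction. None of the 8 genes was called by edgeR, where 1371 genes had an unadjusted p under 0.05 and 0% were called. DESeq2 called 5 of all genes and limma's voom 7, none of the 8 among them. AKR1C2 had the largest interaction of the 8, at 1.41 ± 0.46 with an adjusted p of 0.426 (unadjusted 0.00515), and 1.11 ± 0.47 without the 2 libraries (adjusted p = 0.993), where 0.00745% of genes were called. AKR1C1, as a description, had 1.35 and 0.63. The difference in response between vector and hairpin cells was therefore not detectable at this spread for any of the 8.

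The wider pathway was read from 6 lists with 63 genes besides the 10, of which 54 were tested. Of these, 9 rose and 9 fell in RIS+shHMGA1 against shHMGA1, with a median of -0.21, where 19.6% of all genes were called higher and 19.5% lower, so neither count of the 54 was above the share of all genes. The single lists are small and are read against the same shares, with no test of a list. Of 11 glutathione and thioredoxin genes 4 rose and none fell, with GLRX, glutaredoxin, up by 1.87 ± 0.40 (adjusted p = 0.000767) and TXN, thioredoxin, by 1.39 ± 0.34 (adjusted p = 0.00187). Of 7 haem and iron genes 2 rose and 1 fell, and FTH1, the ferritin heavy chain, rose by 1.22 ± 0.25 (adjusted p = 0.000502).

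Of 14 detoxification and export genes, 4 fell, none rose and 10 were not called in that comparison, against the 19.5% of all genes lower, and without the 2 libraries 4 fell and 1 rose. CBR3, a carbonyl reductase, fell by 1.60 ± 0.19 (adjusted p = 8.4e-05), from 11.4 to 16.2 CPM in shHMGA1 to 3.55 to 5.65 in RIS+shHMGA1. TRIM16, listed there as a reported NRF2 target, fell by 1.5 ± 0.24 (adjusted p = 0.000199). Of 12 regulators and partners 2 rose and 3 fell, among them NFE2L3, an NRF2 relative, by 1.40 ± 0.34 (adjusted p = 0.00179). Of 6 NADPH genes 1 rose and 1 fell, and of 4 other AKR genes none was called. Without the 2 libraries 13 of 54 rose and 10 fell, against 22.5% of all genes higher and 21.9% lower, and the 6 genes named here were called again in the same direction.

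None of the 54 was called in RIS against growing, and without the 2 libraries 8 rose and 11 fell, against 19.2% of all genes higher and 20.5% lower. Both counts are near or under those shares. GLRX rose there by 1.59 ± 0.20 (adjusted p = 2.7e-07), FTL, the ferritin light chain, by 1.40 ± 0.18 (adjusted p = 4.3e-07) and SQSTM1, an autophagy receptor that binds KEAP1, by 1.24 ± 0.16 (adjusted p = 3.4e-07). TRIM16 fell by 1.34 ± 0.13 (adjusted p = 4.5e-09) and CBR3 by 1.23 ± 0.13 (adjusted p = 3.0e-08). SLC7A11, the cystine transporter subunit, fell by 1.18 ± 0.30 (adjusted p = 0.00161).

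With the hairpin, 4 of the 54 rose in RIS+shHMGA1 against RIS and none fell, with a median of 0.06, where 1.77% of all genes were called higher and 0.786% lower. PIR, an iron-binding nuclear protein, rose by 1.31 ± 0.21 (adjusted p = 0.00128), MGST1, a microsomal glutathione transferase, by 0.96 ± 0.19 (adjusted p = 0.00471) and PTGR1, a prostaglandin reductase, by 0.71 ± 0.10 (adjusted p = 0.000452). In shHMGA1 against growing none of the 54 was called, with 11 at an unadjusted p under 0.05. Without the 2 libraries 10 rose and 1 fell in RIS+shHMGA1 against RIS, where 10% of all genes were higher and 2.5% lower, with PIR, MGST1 and PTGR1 again among the former, with PIR at 1.55 ± 0.17 (adjusted p = 7.1e-06), TXN at 1.26 ± 0.22 (adjusted p = 0.000751) and RBX1, a subunit of the ligase that takes NRF2 from KEAP1, at 1.09 ± 0.25 (adjusted p = 0.00283). NFE2L3 fell by 0.90 ± 0.25 (adjusted p = 0.00729). PIR was then also the 1 gene of the 54 called in shHMGA1 against growing, at 0.95 ± 0.16 (adjusted p = 0.000497).

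PIR was at 8.23 to 18.2 CPM in growing and 21.2 to 27.7 in shHMGA1, against 4.96 to 11.9 in RIS and 13.2 to 22.5 in RIS+shHMGA1. Its vector and hairpin libraries did not overlap at either 4OHT state. PIR was named for the size of its called hairpin difference, so this is a description and no further support. The share of all genes that separate in this way was not counted. KEAP1, named for its role after its values were seen, was not called, at -0.47 ± 0.13 in RIS+shHMGA1 against RIS (adjusted p = 0.0160) and -0.21 ± 0.13 in shHMGA1 against growing (adjusted p = 0.510), and at -0.43 ± 0.12 (adjusted p = 0.00754) and -0.29 ± 0.12 (adjusted p = 0.0698) without the 2 libraries.

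**Figure D4:**
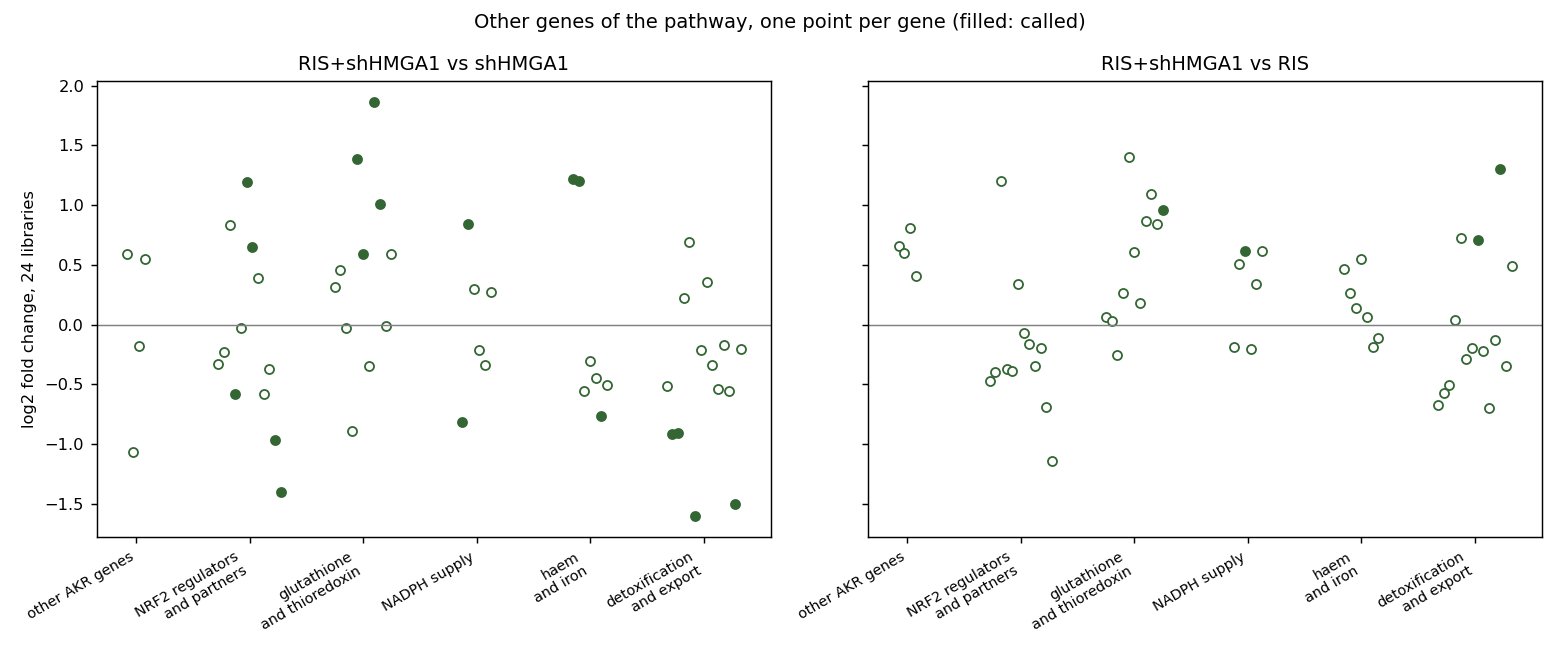
Log2 fold change of the tested genes of 6 pathway lists, with all 24 libraries, in RIS+shHMGA1 against shHMGA1 (left) and against RIS (right). Each point is a gene and filled points were called. On the left 9 filled points lie above 0 and 9 below, and on the right all 4 lie above.

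Around the AKR1C genes, 5 protein-coding neighbours on each side in the RefSeq order were examined. AKR1C4 and AKR1C8 had a count of 0 in every library, so the rest of the cluster could not be followed, and UCN3 and TUBAL3 had at most 1 and 7 counts in a library. NET1 rose in RIS+shHMGA1 against RIS by 0.60 ± 0.14 (adjusted p = 0.00883), and by 0.54 ± 0.13 (adjusted p = 0.00395) without the 2 libraries, under the fold threshold. AKR1E2, a further reductase with at most 37 counts, was higher there by 0.81 ± 0.31 (adjusted p = 0.0469), or 1.03 ± 0.33 (adjusted p = 0.0177), and was not called.

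On the other side, KLF6, a zinc finger factor, and PFKP, a phosphofructokinase, fell after 4OHT in hairpin cells by 0.96 ± 0.17 (adjusted p = 0.000262) and 0.70 ± 0.13 (adjusted p = 0.000344), and both were called again without the 2 libraries. PITRM1, a mitochondrial protease, differed there by -0.08 ± 0.09 (adjusted p = 0.423). None of KLF6, PFKP and PITRM1 was called in RIS+shHMGA1 against RIS, with differences of -0.44, -0.47 and -0.19. Without the 2 libraries these were -0.26, -0.37 and -0.21, again not called. LOC124902565 is not analysed here.

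Over the 24 libraries, the genes whose log2 CPM, each centred on its own mean, stayed closest to AKR1C1 were DNAJC12, LACTB2, AKR1C2, GAS5 and GNG11. Their root mean square distances from AKR1C1 were 0.49, 0.52, 0.55, 0.55 and 0.56, against a median of 1.39 over all genes. AKR1C1 itself varied by 1.33 around its mean. AKR1C2 thus had rank 3 of all genes, and the next of the 10, AKR1B1, had rank 1596. NQO1 had rank 3730, HMOX1 rank 2969 and NFE2L2 rank 8655. These distances are a description over libraries that share 4 groups, among them the hairpin libraries by which AKR1C1 was chosen. AKR1C2 also shares stretches with AKR1C1, so its rank does not rest on fully separate measurements.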

How the data were processed

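The authors trimmed adapters and removed reads of mapping quality under 20, mapped reads to hg19 with STAR 2.5.0b (with cutadapt 1.10.0, per the submitters' processing notes) and counted them per Entrez gene with Rsubread. The deposited values are raw counts of a stranded mRNA library; the annotation, the Rsubread version and the strand setting are not given in the sources used here. Symbols came from the RefSeq gene table, which held 23696 of the 25702 identifiers, and promoter sequences from the RefSeq table on GRCh38.p14. Gene positions and lengths are from GENCODE on GRCh37. No amino acid sequence was used here.

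Counts were filtered with filterByExpr by group (13356 genes, 13416 without growing replicate 4 and RIS replicate 2), scaled by TMM and fitted over all 24 samples with edgeR 4.0.16 in R 4.3.3, with quasi-likelihood tests at the thresholds of the study's methods (adjusted p 0.01, log2 fold change 0.58 in size). Log2 CPM has a prior count of 2. Groups and replicate numbers are those of the labels. The 10 genes, the pathway lists and the tests were chosen with earlier results of these data known. Comparisons share groups: RIS+shHMGA1, RIS, shHMGA1 and growing each enter 2 of the 4. Named were the 10 genes, HMGA1 and the check genes, in each comparison up to 3 called list genes with the largest change in each direction, 5 neighbours on each side and the 5 genes closest to AKR1C1. Alternatives were DESeq2 1.42.0, limma 3.58.1 (voom with sample weights), RLE scaling, other filters, the samples of a contrast only, a replicate block, an FDR of 0.05 and leaving out replicate numbers or the 2 libraries. Scripts were tested on simulated data. No 2 libraries of a group agreed within sampling noise.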

Additional observations from a re-analysis of the deposited data

Results flagged for a closer look

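In 6 of 40 checks of a gene within a group, the highest or lowest of 6 libraries lay further from the rest than Dixon's critical value for 6 values, taken as its gap over the range of the group in log2 CPM, where chance gives about 5% of checks. Growing replicate 4 accounted for 4 of them: it was high in AKR1C2 (1.03 CPM against 0.397 to 0.542 in the other 5, gap 0.696), AKR1B1 (838 against 440 to 546, gap 0.667) and HMOX1 (55.3 against 11.5 to 19.5, gap 0.667), and low in NFE2L2 (66.9 against 95.9 to 112, gap 0.698). RIS replicate 2 accounted for the other 2, being low in HMOX1 (11.8 CPM against 44.2 to 66.3, gap 0.764) and in SRXN1 (106 against 161 to 181, gap 0.786). Taken on CPM instead, a scale tried after seeing the data, 6 of 40 checks passed and 5 of them were the same, with HMOX1 in RIS replicate 2 no longer past the critical value (gap 0.594) and AKR1C1 in growing replicate 4 past it (13.1 against 1.65 to 4.20, gap 0.778). These are the libraries whose MKI67 and IL1A went against their 4OHT labels.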

How the results depend on the processing

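In RIS+shHMGA1 against shHMGA1, 5 genes were called under each of the 10 alternatives and each left-out replicate number. AKR1C1 was among them, but it was chosen by its level in hairpin libraries and adds no support. In the interaction none of the 8 was called, under each of the 9 alternatives that could be fitted. In RIS against growing, 1 gene was called with DESeq2 and at an FDR of 0.05, 3 with voom and without the 2 libraries, 2 with the replicate block without the 2 libraries, and 0 to 1 when a replicate number was left out (1, HMOX1, without replicate 2 or without replicate 4). Among the genes other than AKR1C1 in shHMGA1 against growing, none was called without a filter or with the samples of the contrast only, 2 without the 2 libraries with or without the block, and 0 whichever replicate number was left out, while voom called AKR1C2 in place of NQO1. In RIS+shHMGA1 against RIS, DESeq2 called 3 and RLE scaling, the block and an FDR of 0.05 called 2 each, and leaving out a replicate number gave 1 to 3, with 3 (AKR1C2, AKR1B1 and NQO1) without replicate 4. The cause of these shifts was not tested.

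With the replicate block, 5 genes, AKR1C1 among them, were called for RIS+shHMGA1 against shHMGA1. Apart from AKR1C1, 2 were called for RIS+shHMGA1 against RIS and 1 for shHMGA1 against growing. There were 0 both for RIS against growing and for the interaction. Same-numbered samples of different groups correlated at -0.594 to 0.828 over 36 pairs, with a mean of 0.175 and 24 pairs over 0.1. Samples of different groups and numbers had a mean of -0.0496, and 8 of 24 samples correlated best with their own number. These correlations are of deviations from the group means. They include growing replicate 4 and RIS replicate 2, which stand apart, and were not repeated without them. The main fits left the number out because the study's methods name no block. Some structure shared by same-numbered samples is not excluded.

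No call turned direction. Among differences that were not called, the sign turned as follows. AKR1C2 in RIS against growing was -0.042 with the block and -0.37 to 0.17 with a replicate number left out. NFE2L2 was -0.30 with voom, -0.090 without the 2 libraries, -0.071 with the block as well and -0.022 to 0.069 with a number left out, and in shHMGA1 against growing -0.11, -0.066, -0.043 and -0.081 to 0.065. NQO1 in RIS against growing was -0.13 to 0.045 with a number left out. In shHMGA1 against growing, HMOX1 was 0.097 with voom, 0.076 without the 2 libraries, 0.089 with the block as well and -0.64 to 0.13 with a number left out, and TXNRD1 was 0.028, 0.044 and -0.075 to 0.048 in the last 3. In RIS+shHMGA1 against RIS, HMOX1 was -0.21 with voom, -0.015 without the 2 libraries and -0.0014 with the block as well. In the interaction, HMOX1 was -0.31, -0.091 and -0.090 under these 3, SRXN1 -0.0033, -0.034 and -0.038, and GCLM -0.068 with voom. The low counts of AKR1C2 and AKR1C3 and the spread set by growing replicate 4 and RIS replicate 2 limit what could be called.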

Other observations

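HMGA1 itself was unevenly lowered. In shHMGA1 it was at 58.1 and 54.4 CPM in replicates 5 and 6 and at 98.7 to 143 in replicates 1 to 4, and in RIS+shHMGA1 at 60.0 and 75.1 in replicates 5 and 6 and at 197 to 262 in the others. Within the hairpin groups NQO1 was highest in the same libraries, at 469 and 464 CPM in shHMGA1 replicates 5 and 6 against 341 to 412, and at 421 and 472 in RIS+shHMGA1 replicates 5 and 6 against 301 to 328. In RIS, where HMGA1 was not lowered (786 and 704 in replicates 5 and 6), NQO1 was also highest in these 2 numbers, at 261 and 285 against 218 to 231, while in growing it was 254 and 211 against 214 to 304. In the hairpin groups HMOX1 was also highest in replicates 5 and 6, at 19.1 and 21.4 against 11.1 to 15.7, and at 71.8 and 85.1 against 43.8 to 51.1. In the growing group, replicates 5 and 6 also had more HMOX1 (19.5 and 17.5) than replicates 1 to 3 (11.5 to 12.2), with HMGA1 at 698 and 746, while in RIS HMOX1 was at 66.3 and 44.2 in replicates 5 and 6 against 59.2 to 64.3 in replicates 1, 3 and 4. AKR1C1 did not separate replicates 5 and 6 of RIS+shHMGA1 (32.8 and 29.7) from the others (24.4 to 50.6). In RIS, AKR1C1 was lower in replicates 5 and 6 (3.98 and 3.10) than in replicates 1, 3 and 4 (7.28 to 11.9). In shHMGA1 it was at 12.6 and 12.2 in replicates 5 and 6 against 5.15 to 12.2. In growing it was at 3.39 and 1.65 against 2.86 to 4.20 in replicates 1 to 3. The labels name no batch for these replicates, and no test was made of this split, which was seen in the data.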
